A study of Sus scrofa with 15 samples.

Results

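Immediate early genes are transcribed within minutes of a growth signal or a physical insult, without new protein synthesis. The set described here held 7 genes known for early responses to serum or to the handling of tissue, namely FOS, JUN, JUNB, ATF3, EGR1, MYC and SGK1. A gene counted as measured when a probe set of the array carried its symbol and no other, and the probe set with the highest mean over all arrays stood for it. By that rule 6 of the 7 genes were measured, through 8 probe sets out of the 23999 tested. EGR1 had 3 probe sets and the other measured genes had 1 each, while no probe set carried the symbol JUNB in the annotation used, so JUNB was not analysed here.

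Granulosa cells surround the oocyte in the follicle and make its estrogen and inhibin. RNA from such cells of pigs, cultured for 0, 1, 2, 4 or 7 days, was hybridised to Affymetrix porcine arrays, with 3 arrays for each of the 5 days. Precision is limited by this small number of arrays. The labels name no transgene or added treatment and tell the groups apart by days of culture, with the cells of day 7 called DFOG. The replicates are described as biological, but no source used here says whether they came from separate animals, pools of follicles or cultures, so the p-values reflect only how far these arrays differ among themselves. The sources do not give the age of the animals, the way the cells were freed from the follicle, the medium or its serum. They also leave out the time between collection and RNA extraction on day 0. A link to isolation or to serum is therefore known for these genes in general and was not varied in this study.

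FOS and JUN proteins pair to form AP-1, a transcription factor that binds the promoters of many growth and stress genes. ATF3 belongs to a related family and is induced by stress, EGR1 is a zinc finger factor, and MYC pairs with MAX to drive genes of ribosome assembly and growth. SGK1 is a protein kinase named for its induction by serum and by glucocorticoids, and in rat granulosa cells it is also induced by follicle-stimulating hormone. Enzymatic release of cells from many tissues is known to raise FOS, JUN, ATF3 and EGR1 within the time of the procedure.

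Values are log2 intensities on the RMA scale, changes are log2 differences between day means with their standard error (SE) from limma, and levels of different probe sets are not compared. Calls needed a Benjamini-Hochberg adjusted p under 0.05, taken over all 23999 probe sets, together with a change of at least 1 in size. No value of these genes lay below the lower quartile of its own array, which ran from 4.41 to 4.68. As the RNA is bulk, fewer cells of a type and less RNA per cell cannot be told apart in any change below.

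Replicate 1 stood apart from replicates 2 and 3 on every day. Over all probe sets its median absolute distance from the mean of the other two was 0.23 to 0.34, against 0.13 to 0.19 between replicates 2 and 3. The 3′ minus 5′ signal of actin lay between 0.97 and 1.68 on day 0, between 0.18 and 1.01 on day 1 and between 0.19 and 0.59 on day 7, and reached 2.12 in replicate 2 of day 4. The same measure of dap, a bacterial control transcript on the array and not an RNA of the cells, lay between 1.72 and 1.77 on day 0, between 1.47 and 1.63 on day 1 and between 1.25 and 1.45 on day 7, and was 3.52 on that array. The other bacterial controls (lys, phe and thr) were also highest there. The part of these differences in the changes below was not tested. Results are therefore also given without replicate 1, and where it matters without replicate 2 of day 4. Of 15 granulosa cell markers, INHA, the inhibin alpha subunit, averaged 14.26 on day 0, HSD17B1, an estradiol-forming enzyme, 13.52, FSHR, the receptor for follicle-stimulating hormone, 7.01 and FOXL2, a transcription factor of granulosa cells, 5.89. Of 14 macrophage and leukocyte markers, 10 had a day 0 mean below the highest lower quartile of the arrays, and none was called on day 1 against day 0.

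The 6 measured genes fell into 3 time courses. FOS, JUN and ATF3 were highest on day 0 and were lower on every later day. MYC and SGK1 were lowest on day 0 and were higher on every later day. EGR1 stayed near its day 0 level on days 1 and 2 and was lower on day 7. All 6 varied over the 5 days by limma's F test with a range of day means of at least 1, as did 23.6% of all probe sets. Another EGR1 probe set, the next brightest, was not called by that test (adjusted p = 0.122). On day 1 against day 0, 5 of the 6 were called, where 12.5% of all probe sets were. They were 2 higher and 3 lower, against 6.47% higher and 6.03% lower among all probe sets. The genes were chosen with earlier results of these data known, so these counts are not a test of the set.

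**Figure D1:**
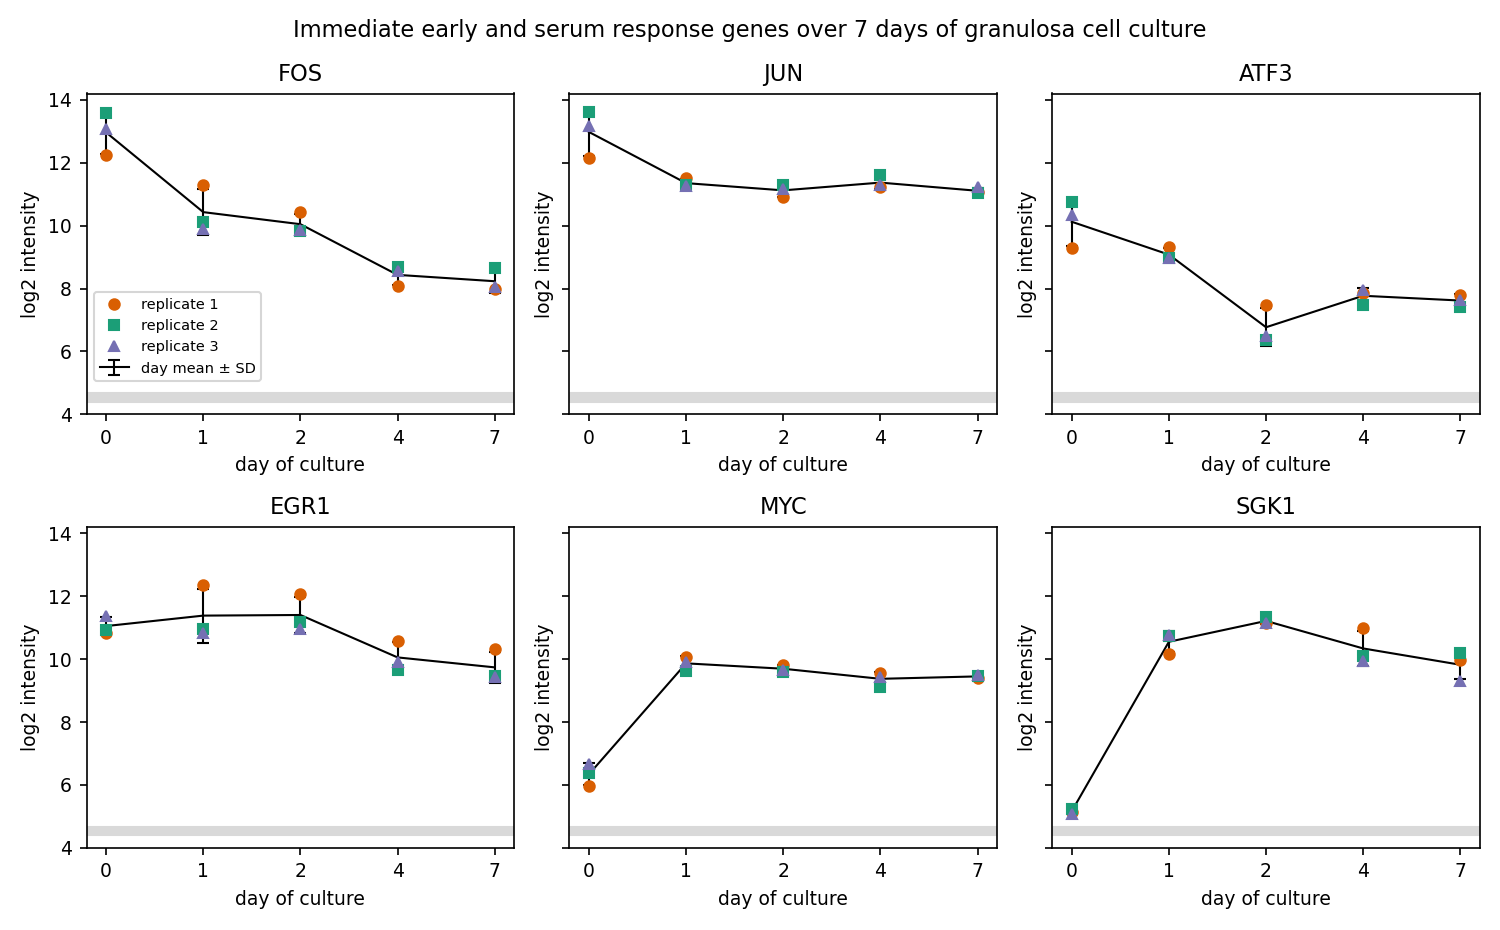
Log2 intensity of the 6 measured genes (vertical axis) on days 0, 1, 2, 4 and 7, which are spaced evenly and not to scale; symbols are single arrays by replicate number, the line and bars are the day mean ± SD of 3 arrays, and the grey band is the range of the arrays' lower quartiles. FOS, JUN and ATF3 start high, MYC and SGK1 start low, and replicate 1 lies below the other replicates for FOS, JUN and ATF3 on day 0.

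FOS, the inducible partner in AP-1, had day 0 values of 12.23, 13.57 and 13.08 in replicates 1, 2 and 3. They were 11.28, 10.11 and 9.90 on day 1, 10.43, 9.83 and 9.87 on day 2, 8.08, 8.68 and 8.54 on day 4, and 7.99, 8.65 and 8.05 on day 7. Every array of a later day lay below every array of day 0, and every array of days 4 and 7 lay below every array of days 1 and 2. FOS was 5.80-fold lower on day 1 than on day 0, a change of −2.54 (SE 0.38, adjusted p = 0.000225), and 26.6-fold lower on day 7 than on day 0, a change of −4.73 (SE 0.38, adjusted p = 4.3e-07). Thus 53.6% of the day 7 difference on the log2 scale was present on day 1 and 95.7% on day 4.

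With all 15 arrays in the fit FOS fell in 2 steps. Between day 1 and day 2 it changed by −0.38 (SE 0.38, adjusted p = 0.742), which was within the spread between arrays. Between day 2 and day 4 it fell again, with a change of −1.61 (SE 0.38, adjusted p = 0.0288). That second call was lost when any array of day 2, or replicate 1 or 3 of day 4, was left out (changes of −1.42 to −1.72, adjusted p 0.067 to 0.112). Without replicate 1 of every day it was called, with a change of −1.24 (SE 0.21, adjusted p = 0.0064). In that same fit FOS on day 1 was lower than on day 0 by more than in all arrays, with a change of −3.32 (SE 0.21), since replicate 1 was 1.27 above the mean of the other replicates on day 1 and 1.09 below it on day 0.

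JUN, the main partner of FOS in AP-1, was lower from day 1 on, with no later step that was called. Its day 0 values were 12.14, 13.62 and 13.18. They were 11.50, 11.29 and 11.26 on day 1, 10.90, 11.28 and 11.18 on day 2, 11.22, 11.60 and 11.28 on day 4, and 11.07, 11.03 and 11.22 on day 7. Day 0 did not overlap any later day, and the later days overlapped in part. JUN was 3.09-fold lower on day 1 than on day 0, a change of −1.63 (SE 0.28, adjusted p = 0.000635), and 3.65-fold lower on day 7 than on day 0, a change of −1.87 (SE 0.28, adjusted p = 0.000142).

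From day 1 to day 7 JUN changed by −0.24, with a 95% interval of −0.84 to 0.36 and an adjusted p of 0.641. The day means after day 0 lay within 0.26 of each other, and no pair of neighbours in their order passed the test. Without replicate 1, whose day 0 value was 1.26 below the mean of the others, the day 1 minus day 0 change was −2.12 (SE 0.17).

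ATF3, a factor of the ATF and CREB family that stress induces, reached its lowest level on day 2. Its day 0 values were 9.27, 10.76 and 10.33. They were 9.31, 8.96 and 8.97 on day 1, 7.46, 6.36 and 6.49 on day 2, 7.87, 7.49 and 7.95 on day 4, and 7.81, 7.41 and 7.64 on day 7. Day 1 and day 0 overlapped, because replicate 1 had nearly the same value on both days, while days 2, 4 and 7 lay below every array of days 0 and 1.

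The day 1 minus day 0 change of ATF3 was −1.04 (SE 0.34, adjusted p = 0.0386). It was called with all arrays but not with only the 6 arrays of those days (adjusted p = 0.0819). The call was also lost without replicate 2 or 3 of day 0, replicate 2 or 3 of day 1 or replicate 3 of day 7, where the change ran from −0.72 to −1.04. Without replicate 1 it was −1.58 (SE 0.19, adjusted p = 0.000124). By day 2 ATF3 was 10.2-fold lower than on day 0, a change of −3.35 (SE 0.34, adjusted p = 6.7e-06), and day 2 was 4.96-fold lower than day 1.

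After day 2 ATF3 was with all arrays called neither higher nor lower from one sampled day to the next. All 3 arrays of day 4 exceeded all 3 of day 2, by 1.00 on average (SE 0.34), but the adjusted p was 0.153 and the change was not called. It was called without replicate 1 of every day, at 1.30 (SE 0.19, adjusted p = 0.0026), without replicate 1 of day 2 alone and, at the margin of the threshold, without replicate 1 of day 0. Day 7 overlapped day 2, its lowest array of 7.41 lying below the highest of day 2, 7.46. ATF3 on day 7 was 5.68-fold lower than on day 0 and 2.75-fold lower than on day 1, both called.

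On day 1 the lower FOS was accompanied by higher levels of its relatives FOSL1 and FOSL2. FOSL1 and FOSL2 encode Fra-1 and Fra-2, FOS family proteins that also pair with JUN but lack the strong activation domain of FOS. FOSL1 had values of 5.09, 6.39 and 6.46 on day 0, 8.57, 8.66 and 8.95 on day 1, 7.60, 6.02 and 6.42 on day 2, 9.02, 8.20 and 7.92 on day 4 and 7.97 on all 3 arrays of day 7. It rose by 2.75 on day 1 relative to day 0 (SE 0.41, adjusted p = 0.000242), fell by 2.05 on day 2 relative to day 1 (adjusted p = 0.0101) and rose by 1.70 on day 4 relative to day 2 (adjusted p = 0.0348). On day 2 its change from day 0 was 0.70 (SE 0.41, adjusted p = 0.260), and −0.20 without replicate 1, and neither was called. This probe set thus dipped on day 2, the day on which ATF3 was lowest. Another 2 FOSL1 probe sets also rose on day 1, by 1.28 and 1.01 (0.996 and 0.90, under the minimum change, without replicate 1). Neither was called lower on day 2 than on day 1 (−0.95 and −0.80). On day 4 neither was called higher than on day 2 (0.37, adjusted p = 0.642, and 0.28, adjusted p = 0.756). Against day 0 neither was called on day 2 or day 4.

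FOSL2 had values of 6.40, 7.58 and 8.17 on day 0, 10.35, 9.87 and 9.95 on day 1, 9.61, 9.17 and 9.30 on day 2, 8.85, 8.83 and 8.51 on day 4 and 8.97, 8.68 and 8.50 on day 7. No array of a later day fell to a day 0 value. It rose by 2.67 on day 1 relative to day 0 (SE 0.33, adjusted p = 5.2e-05). On day 7 it was 1.34 lower than on day 1 (SE 0.33, adjusted p = 0.0117). On day 4 against day 0 it was called with all arrays (1.35, SE 0.33) and not without replicate 1 (0.79, SE 0.19). Of the 20 listed AP-1 subunits and ATF relatives 8 were measured. On day 1 against day 0, 2 of them rose (FOSL1 and FOSL2), 3 fell (FOS, JUN and ATF3) and 3 were not called, namely CREB1, CREM and ATF7. Among all probe sets 12.5% were called in that comparison. With all arrays the same 5 genes were called in the same directions on day 7 against day 0, where 16.6% of all probe sets were called. FOSL2 was not called in that comparison without replicate 1, at 0.71 (SE 0.19, adjusted p = 0.0132) against 1.33 (SE 0.33) with all arrays, which left 4 genes called. FOSL1 on day 7 was 1.99 higher than on day 0 (SE 0.41) and 1.54 higher without replicate 1 (SE 0.17), both called, while its other probe sets were not called (0.68, adjusted p = 0.061, and 0.48, adjusted p = 0.183).

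**Figure D2:**
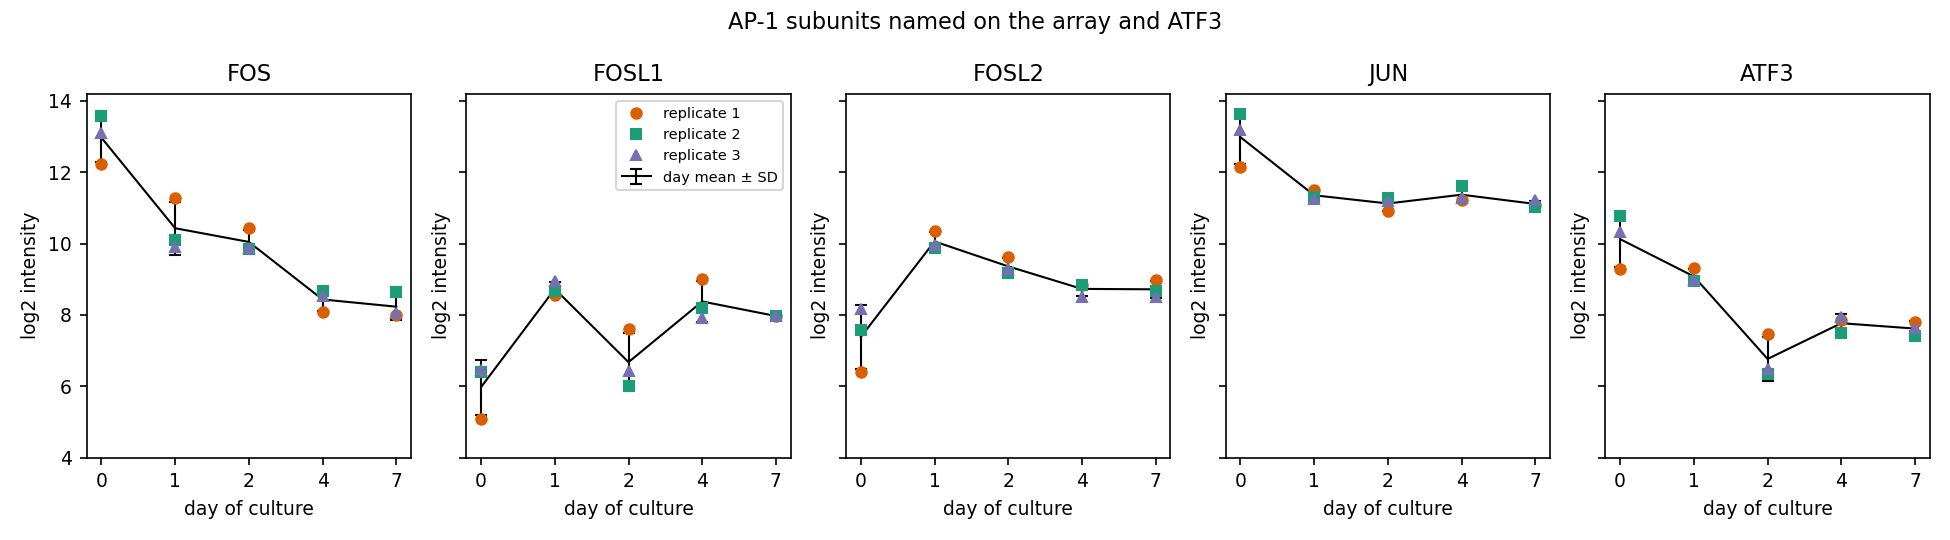
Log2 intensity of FOS, FOSL1, FOSL2, JUN and ATF3 by day (evenly spaced, not to scale), with single arrays as symbols and the day mean ± SD of 3 arrays as line and bars. FOSL1 and FOSL2 are above their day 0 level on day 1 while FOS, JUN and ATF3 are below theirs, and ATF3 and the FOSL1 probe set shown both dip on day 2.

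EGR1, an early growth response factor that gonadotropins and growth factors induce, was with all arrays not called against day 0 before day 7 in its main probe set. That probe set had values of 10.84, 10.93 and 11.38 on day 0, 12.37, 10.95 and 10.83 on day 1, 12.06, 11.17 and 10.97 on day 2, 10.59, 9.67 and 9.91 on day 4, and 10.32, 9.46 and 9.44 on day 7. Days 0, 1 and 2 overlapped, and days 4 and 7 lay below all 3 of them. Replicate 1 was the highest array on each of days 1, 2, 4 and 7 and the lowest on day 0.

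The day 1 minus day 0 change of EGR1 was 0.33, with a 95% interval of −0.56 to 1.22 and an adjusted p of 0.650, and without replicate 1 it was −0.27 (SE 0.17, adjusted p = 0.256). Neither direction was thus supported for the first day. On day 4 against day 0 it changed by −0.996 (SE 0.41, adjusted p = 0.0871), and without replicate 1 of every day by −1.37 (SE 0.17, adjusted p = 0.000107), which was called. With replicate number as a block the change in all arrays had an SE of 0.28 and an adjusted p of 0.0134, still under the minimum change. EGR1 was 2.48-fold lower on day 7 than on day 0, a change of −1.31 (SE 0.41, adjusted p = 0.0266), and 3.13-fold lower on day 7 than on day 1, a change of −1.65 (SE 0.41, adjusted p = 0.0126). The day 7 minus day 0 call was lost without replicate 2 or 3 of either day (changes of −1.15 to −1.37), and the day 7 minus day 1 call without replicate 2 or 3 of day 7 (adjusted p 0.0532 and 0.0537). Without replicate 1 of every day both were called, at −1.71 (SE 0.17) and −1.44 (SE 0.17).

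The drop in EGR1 between day 2 and day 4 depended on how the spread was modelled. It was −1.35 (SE 0.41, adjusted p = 0.101) in the fit of days alone. With replicate number as a block the same change had an adjusted p of 0.0116 and was called. It was also called without replicate 1 of every day, at −1.28 (SE 0.17, adjusted p = 0.0014), and not without replicate 2 of day 4, at −1.15 (SE 0.46, adjusted p = 0.274).

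The 3 EGR1 probe sets shared the late decline and differed on day 0. The next brightest had values of 8.07, 11.00 and 10.51 on day 0, and its arrays averaged 10.46 on day 1, 10.32 on day 2, 9.43 on day 4 and 8.75 on day 7. The dimmest had values of 7.16, 8.69 and 8.69 on day 0 and 10.22, 7.69 and 7.71 on day 1, and averaged 8.21 on day 2, 6.51 on day 4 and 6.32 on day 7. On day 0 replicate 1 lay 2.69 and 1.53 below the mean of the other replicates in these probe sets, against 0.32 below it in the main one. All 3 were called lower on day 7 against day 1, with changes of −1.65, −1.71 (adjusted p = 0.0494) and −2.23 (adjusted p = 0.0117). Against day 0, the day 7 change was not called in the next brightest (−1.11, adjusted p = 0.160) and was called in the dimmest (−1.87, adjusted p = 0.0192). The dimmest was also called lower on day 4 against day 0 (−1.67, adjusted p = 0.0341), and the next brightest was not (−0.43, adjusted p = 0.617).

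**Figure D3:**
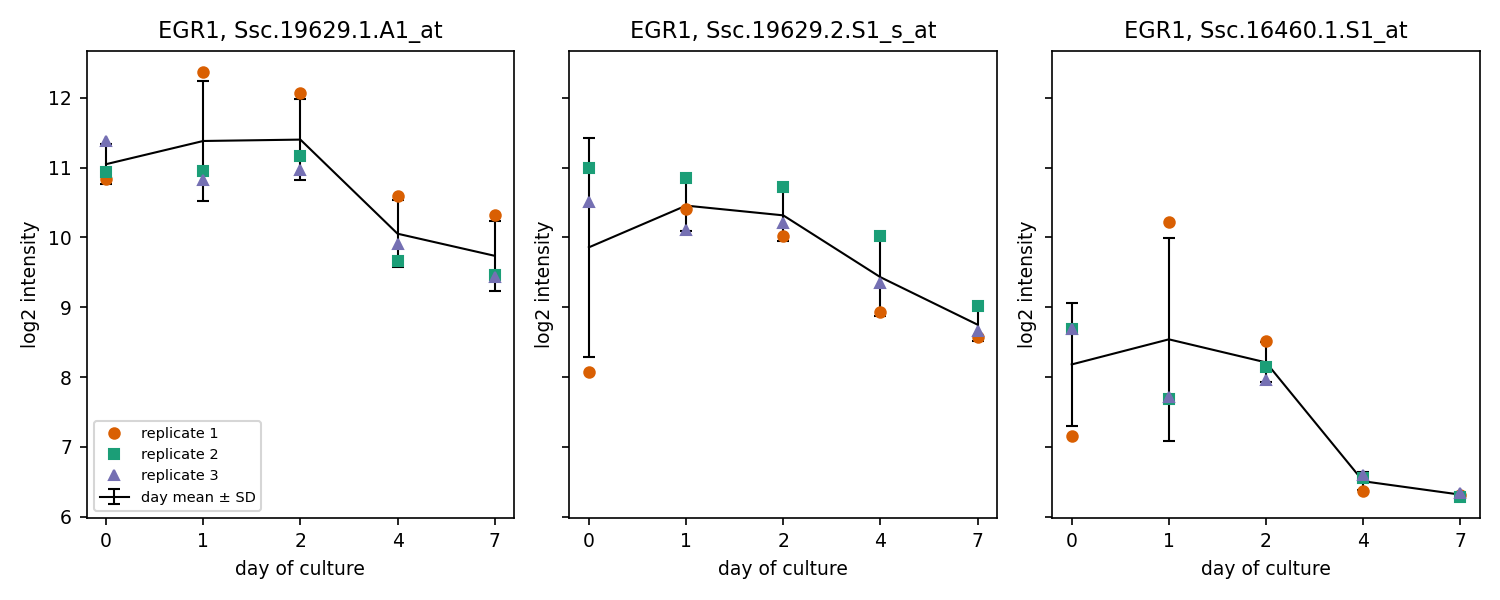
Log2 intensity of the 3 EGR1 probe sets by day (evenly spaced, not to scale), with single arrays as symbols and the day mean ± SD of 3 arrays as line and bars. All 3 are lower on days 4 and 7, and replicate 1 of day 0 is far below the other arrays in the middle and right panels but not in the left one.

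Other early factors did not share one course. Of 22 listed EGR, NR4A, KLF and IER genes 14 were measured. On day 1 against day 0, 6.47% of all probe sets were called higher and 6.03% lower. Of the 14 genes 4 rose and none fell, while 10, EGR1 among them, were not called. One of the 4 was KLF9, a zinc finger factor and glucocorticoid target, at 7.82 on day 1 and 3.50 on day 0. All 3 of its day 0 arrays lay below the lower quartile of their array, where a probe set may not exceed background. For such genes the change is given as a lower limit, with arrays below their lower quartile set to it, and for KLF9 it was at least 3.20 (adjusted p = 1.2e-05). The others were KLF10, a factor induced by TGF-beta, by 3.19 (SE 0.28), IER3 by 2.51 (SE 0.18) and IER2 by 2.29 (SE 0.27). By day 7, 4 of the 14 had fallen relative to day 1, where 3.31% of all probe sets were called lower. They were EGR1, IER2 (−1.61, SE 0.27), IER5 and BTG1. BHLHE40, a clock and hypoxia factor, had risen by at least 2.74 (adjusted p = 0.000404), with 2 arrays of day 1 below their lower quartile. In either direction 9.03% of all probe sets were called in that comparison. The median over the 14 was 0.64 on day 1 against day 0 and −0.47 on day 7 against day 1, against −0.00 and −0.06 over all probe sets.

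MYC was low on day 0 and far higher on every later array. Its day 0 values were 5.97, 6.39 and 6.66. They were 10.06, 9.63 and 9.91 on day 1, 9.81, 9.60 and 9.67 on day 2, 9.55, 9.13 and 9.44 on day 4, and 9.40, 9.46 and 9.49 on day 7. No later array overlapped day 0, and the lowest later array was replicate 2 of day 4. MYC was 11.5-fold higher on day 1 than on day 0, a change of 3.53 (SE 0.18, adjusted p = 3.2e-08), and 8.65-fold higher on day 7 than on day 0, a change of 3.11 (SE 0.18, adjusted p = 2.1e-08).

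After day 1 MYC hardly moved. It was 0.41 lower on day 7 than on day 1 (SE 0.18, 95% interval of the change −0.80 to −0.03), and the groups did not overlap, but the adjusted p was 0.135. Without replicate 1 the day 1 minus day 0 change was 3.25 (SE 0.16). Across 25 alternative settings it ran from 3.25 to 3.69 and was called in each.

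Of 13 listed partners and antagonists of MYC 6 were measured. On day 1 against day 0 only MYC rose and only MXD3, a MYC antagonist that also pairs with MAX, fell, by 2.16 (SE 0.32, adjusted p = 0.000213). Of 20 listed growth genes known as MYC targets 17 were measured. On day 1 against day 0, 10 of them rose and 1 fell, where 6.47% of all probe sets were called higher and 6.03% lower. The median change was 1.11, against −0.00 over all probe sets. The largest rises were those of GNL3, a nucleolar GTPase, by 2.65 (SE 0.25), NME1, a nucleoside diphosphate kinase, by 2.45 (SE 0.25), and SRM, spermidine synthase, by 2.17 (SE 0.18). The gene that fell was CCND2, cyclin D2, which follicle-stimulating hormone induces in mouse granulosa cells, with a change of −3.31 (SE 0.50).

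On day 7 against day 1, where 9.03% of all probe sets were called, MYC was not called (−0.41). Of these 17 growth genes 13 were not called. ODC1 and GNL3 had fallen, LDHA and CCND2 had risen, and the median was −0.59 against −0.06 over all probe sets. The call of CCND2 (1.89, SE 0.50, adjusted p = 0.0173) was lost with only the 6 arrays of those days (adjusted p = 0.0549) and without replicate 1 of day 1 or replicate 2 or 3 of day 7 (changes of 1.45 to 1.65, adjusted p 0.0736 to 0.0806). ODC1, ornithine decarboxylase, changed by −1.19 (SE 0.19) and LDHA, lactate dehydrogenase A, by 2.43 (SE 0.23). Against day 0, 6 of the 17 were called higher on day 7 and CCND2 lower. In that comparison 9.36% of all probe sets were called higher and 7.28% lower.

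**Figure D4:**
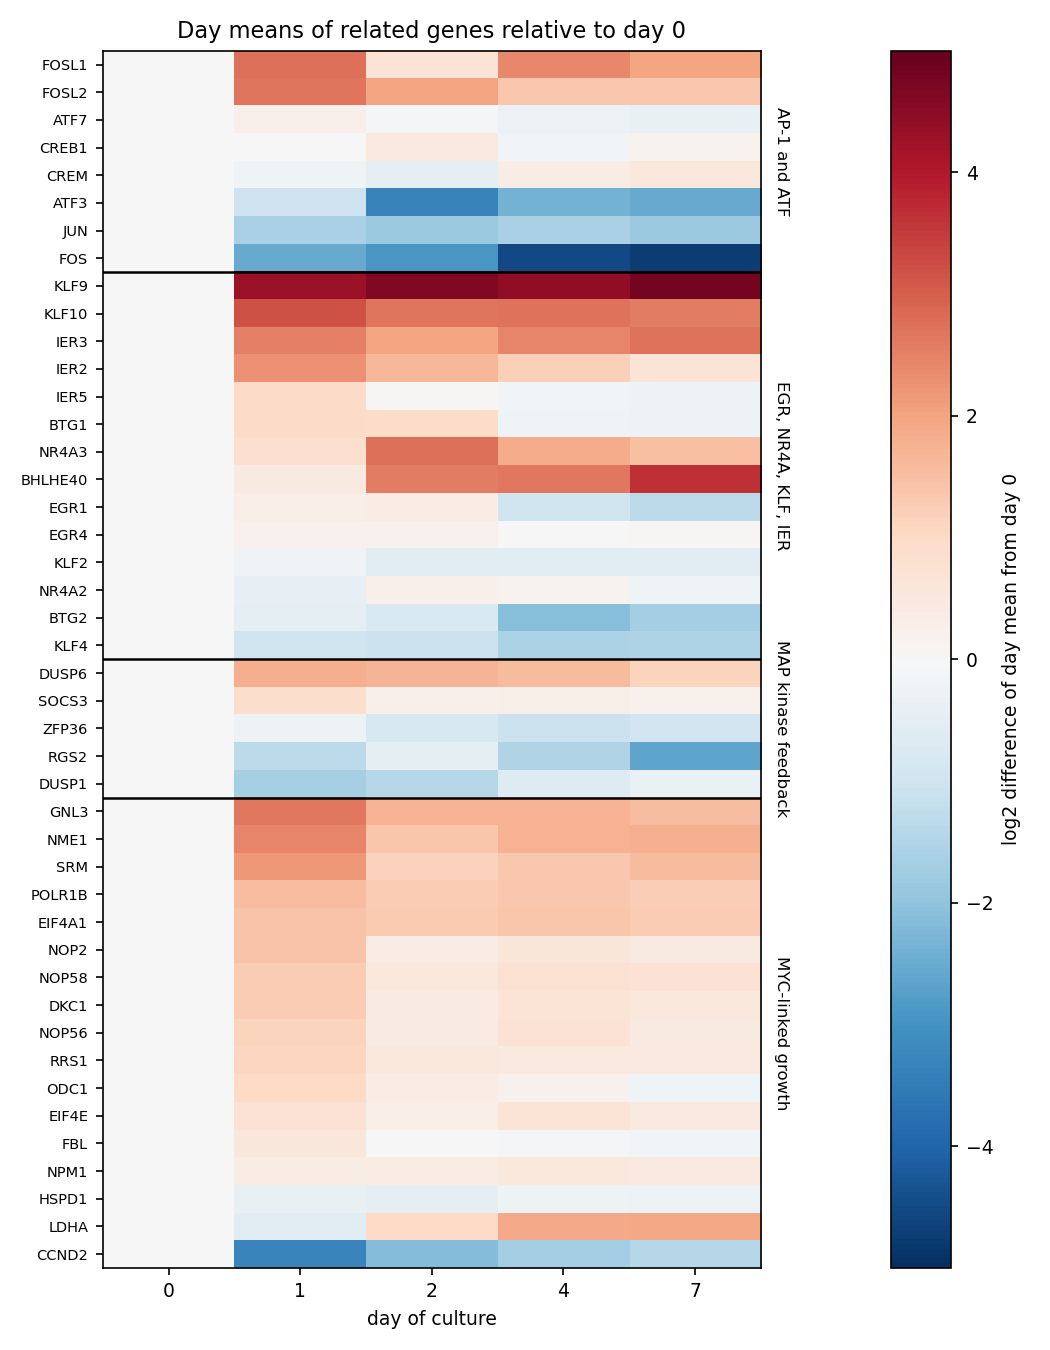
Difference of each day's mean log2 intensity from the day 0 mean (colour, log2) for the measured genes of 4 lists, with days in columns and genes in rows sorted within each list by the day 1 difference. KLF9 and FOSL1 are higher on day 1, FOS is lowest on day 7, and most MYC-linked growth genes are highest on day 1.

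SGK1 changed most among the 6 genes. Its day 0 values were 5.15, 5.24 and 5.09, not far above the arrays' lower quartiles. They were 10.17, 10.73 and 10.75 on day 1, 11.15, 11.33 and 11.16 on day 2, 10.99, 10.09 and 9.94 on day 4, and 9.96, 10.18 and 9.32 on day 7. Every later array was above every day 0 array, and all 3 arrays of day 2 were above all those of days 0, 1, 4 and 7. SGK1 was 66.4-fold higher on day 2 than on day 0, a change of 6.05 (SE 0.27, adjusted p = 6e-09), and 25.3-fold higher on day 7 than on day 0, a change of 4.66 (SE 0.27, adjusted p = 2.5e-08).

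The peak of SGK1 on day 2 was not firm. The change was 0.66 from day 1 to day 2 (SE 0.27, adjusted p = 0.207) and −0.88 from day 2 to day 4 (SE 0.27, adjusted p = 0.105). The drop was called without replicate 1 of day 4 (−1.20, adjusted p = 0.0152) or without replicate 1 of every day (−1.23, SE 0.23, adjusted p = 0.0102). Day 7 was 0.73 below day 1 (SE 0.27, adjusted p = 0.0807), and without replicate 1 by 0.99 (SE 0.23, adjusted p = 0.0097), just under the minimum change.

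Among all probe sets 12.5% were called on day 1 against day 0 and 9.03% on day 7 against day 1. Of 16 listed SGK kinases and substrates 9 were measured. Only SGK1 rose and only FOXO1, a forkhead factor that SGK1 can phosphorylate, fell on day 1 against day 0, by 1.68 (SE 0.33, adjusted p = 0.00201), while SGK2 (−0.36) and the upstream kinase PDPK1 (0.46) were not called. NDRG2 and FOXO1 were lower on day 7 than on day 1, and neither call held in all alternatives. Among 11 measured glucocorticoid receptor targets, KLF9 and CEBPD rose and DUSP1 and HSD11B1 fell on day 1 against day 0. The change of CEBPD was 1.81 (SE 0.42, adjusted p = 0.00603), and without replicate 1 of every day it was 0.84 (SE 0.19) and not called. TSC22D3 and FKBP5, widely used readouts of glucocorticoid action, were not called then, with changes of −0.05 and 0.52. They were lower on day 7 than on day 1, by 2.36 (SE 0.37) and 1.39 (SE 0.25).

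**Figure D5:**
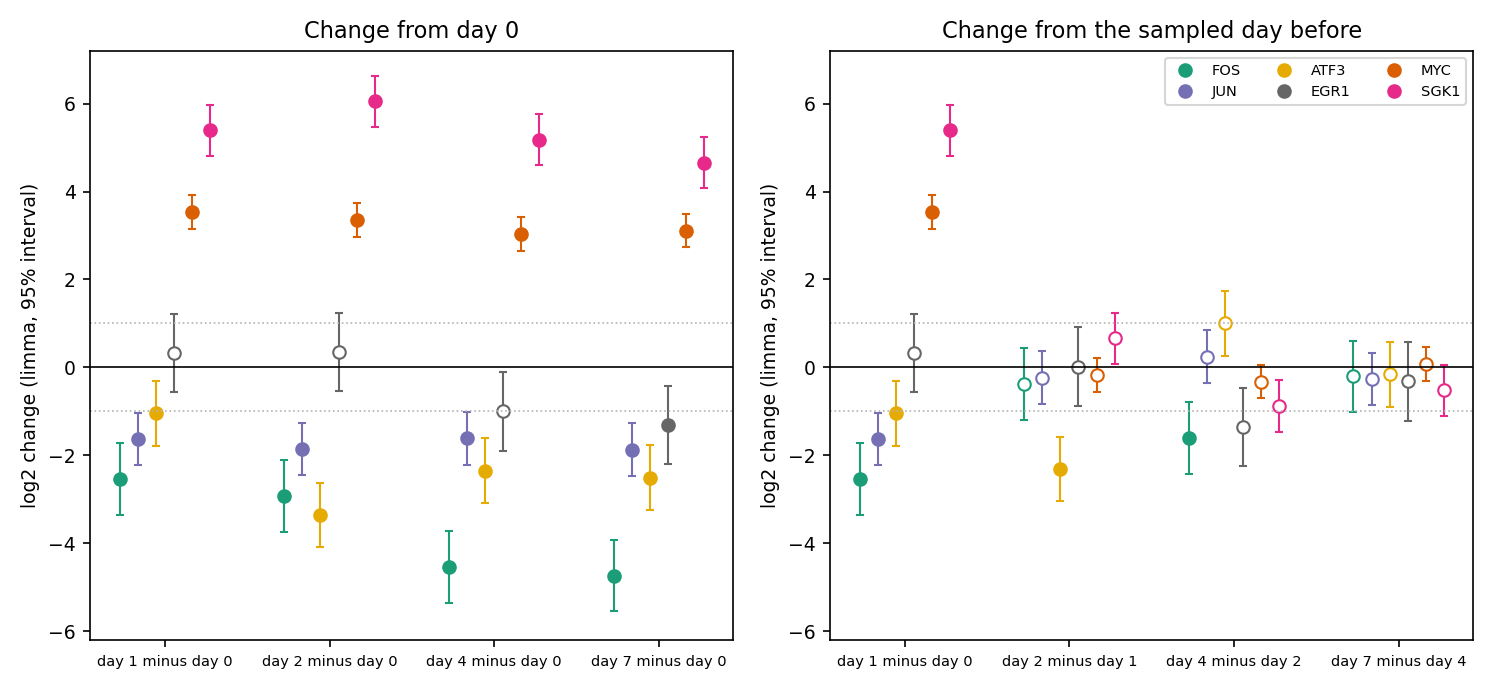
Log2 change of the 6 genes (limma estimate with 95% interval) from day 0 on the left and from the sampled day before on the right; filled points were called at an adjusted p under 0.05 and a change of at least 1 in size (dotted lines), open points were not. From day 0 only EGR1 is open on days 1, 2 and 4, and after day 1 the only filled steps are ATF3 on day 2 and FOS on day 4.

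Over the other comparisons the counts were as follows. On day 2 against day 0 and on day 4 against day 0, 2 of the 6 genes were higher and 3 were lower, where 13.8% and 15.9% of all probe sets were called. For day 7 against day 0, 2 were higher and 4 lower, against a background of 16.6% (9.36% higher and 7.28% lower). These 3 comparisons and that of day 1 share the day 0 arrays, so they are not independent of each other.

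Steps between later days were few. On day 2 against day 1 only ATF3 was called, and it was lower, where 3.04% of all probe sets were called and 1% were called lower. On day 4 against day 2 only FOS was called, also lower, against a background of 2.53% (0.538% lower), and with replicate number as a block FOS and EGR1 were. For day 7 against day 4 none of the 6 was called by limma, none had an unadjusted p under 0.05, and 0.0583% of all probe sets were called. Against day 1, 3 were lower on day 7 (FOS, ATF3 and EGR1) and none higher, against 9.03% called and 3.31% called lower among all probe sets. Values of the 2 days did not overlap for 4 of the 6 genes on day 1 against day 0, where the same held for 37% of all probe sets, and for all 6 on day 7 against day 0, where it held for 46.5%.

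Across the 15 arrays MYC and SGK1 had the closest profiles, with a Pearson r of 0.97, followed by FOS and JUN at 0.83, JUN and ATF3 at 0.80, and FOS and ATF3 at 0.75. EGR1 correlated with FOS at 0.61 and with MYC and SGK1 at −0.05 each. SGK1 and JUN stood at −0.89. These values describe arrays that share days and replicate 1, and differences between days and within days were not separated.

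Among 6764 other named genes, FOS was most like GPRASP2 (r = 0.99), ZNF3 and C15H2orf88 over the 15 arrays, which were lower on day 7 than on day 0. The change was −2.54 for GPRASP2 and −2.98 for ZNF3, and C15H2orf88, whose day 7 arrays were below their lower quartiles, was lower by at least 3.66. JUN was most like IPO11 (r = 0.96), TMEM117 and NCOA7. ATF3 was most like MRPL9 (r = 0.95), EGLN1 and RASL11B, although MRPL9 differed by only −0.46 on day 7 against day 0. EGR1 was most like MRPS22 (r = 0.92), RARRES1 and BLMH. MYC was most like FHL3 (r = 0.99), DNAJC5 and TNFRSF12A, the receptor of the cytokine TWEAK, which was 4.41 higher on day 1 than on day 0. SGK1 was most like KHDRBS3 (r = 0.99), an RNA-binding protein gene that was at least 4.87 higher on day 1 than on day 0, when its arrays lay below their lower quartiles, and next SLC25A24 and CNN3.

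Genes of MAP kinase signaling and of growth factor ligands and receptors were called in both directions. On day 1 against day 0, 12.5% of all probe sets were called, and 9.03% on day 7 against day 1. The counts below were not tested against these shares. Of 5 measured feedback regulators of MAP kinase signaling, on day 1 against day 0 DUSP6, a phosphatase that ERK induces, rose by 1.82 (SE 0.37, adjusted p = 0.00234). DUSP1, a phosphatase that is itself an immediate early gene, fell, with a change of −1.68 (SE 0.31, adjusted p = 0.00108), and it had risen by 1.34 on day 7 relative to day 1 (SE 0.31). FOS, JUN and ATF3, which like DUSP1 were lower on day 1 than on day 0, were not higher on day 7 than on day 1. Of 10 measured MAP kinase cascade genes RPS6KA1 rose (1.04, and 0.84 or 0.83 and not called without replicate 1 of day 0 or replicate 3 of day 1) and MAP2K6 fell on day 1, and none was called on day 7 against day 1. Among ligands LIF and AREG rose and IGF1 and VEGFA fell on day 1 (12 measured). LIF, whose day 0 arrays lay below their lower quartile, rose by at least 1.03. AREG changed by 1.91 (SE 0.65, adjusted p = 0.0443). The AREG change was 1.40 without replicate 1 of day 0, 1.35 without replicate 1 of day 1 and 0.83 without replicate 1 of every day, and was called in none of these. Among receptors PDGFRB, F2R and FGFR2 rose and none fell (8 measured).

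The background on day 1 against day 0 was 6.47% of all probe sets called higher and 6.03% lower. On day 7 against day 1 it was 9.03% called. Of the SRF list, the genes of the serum response factor and its actin-linked targets, 9 were measured. On day 1 against day 0 FHL2, TAGLN, VCL and CNN1 rose and CSRP2 fell. CNN1 averaged 5.47 on day 1 and 4.34 on day 0, below the lower quartiles of the day 0 arrays (4.59 to 4.68). A lower limit for its rise was not computed. FHL2, a cofactor of SRF, rose by at least 5.51 (adjusted p = 9.1e-10), with means of 10.13 on day 1 and 4.09 on day 0, where all 3 arrays were below their lower quartile. Of 17 measured serum and wound response genes 5 rose on day 1, namely THBS1 by 5.02 (SE 0.38), LOX, CCL2, PLAT and TIMP1, and VEGFA and SERPINE2 fell. By day 7, 8 of the 17 had risen relative to day 1 and GADD45B had fallen. MYC and SGK1 were not called in that comparison.

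Of 18 listed heat shock genes 16 were measured, and HSPA1A and HSPA1B were not. On day 1 against day 0, 1 of the 16 was called, where 12.5% of all probe sets were. This was HSPA5, a chaperone of the endoplasmic reticulum, which fell by 1.02 (SE 0.14), and its change was under the minimum without replicate 2 of day 0 (−0.88) or replicate 3 of day 1 (−0.996). DNAJB1, a classic heat shock target, changed by −0.70 and was not called, and HSPA8 changed by 0.28. On day 7 against day 1, where 9.03% of all probe sets were called, 2 of the 16 rose and none fell. These were DNAJB4 (2.62, SE 0.32) and BAG3 (1.53, SE 0.16). None of 9 measured NF-kappaB targets was called on day 1 against day 0, although NFKBIA changed by −0.94 and NFKBIB by 0.93, and without replicate 1 of every day 2 of the 9 were called. Of 9 amino acid and unfolded protein response genes ATF4, CEBPG, DDIT3 and ASNS rose and VLDLR fell.

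Cell type markers moved over the same days. The summed linear signal of 15 granulosa markers lay between 55995 and 76201 on day 0, between 20519 and 32206 on day 1 and between 10077 and 10908 on day 7. GJA1, the gap junction protein connexin 43, made up 85.1% of the day 7 sum, and INHA 29.7% of that of day 0. Of these 15, 9 fell and none rose on day 1 against day 0, where 6.03% of all probe sets were called lower. For 10 theca and stromal markers the sum lay between 857 and 1160 on day 0, between 1042 and 1726 on day 1 and between 24285 and 25502 on day 7. ACTA2, smooth muscle actin, made up 77.8% of the day 7 sum and DCN, decorin, 15.2%. On day 7 against day 0, 5 of the 10 rose, INSL3 fell and 4 were not called, with a median change of 0.82. In that comparison 9.36% of all probe sets were called higher and 7.28% lower. On day 1 against day 0, only ACTA2 of those 10 was called higher and only INSL3 lower, where 12.5% of all probe sets were called. The sum of 10 endothelial markers lay between 425 and 481 on day 7, against 582 to 786 on day 0. TIE1 made up 51.1% of the day 0 sum and PECAM1 31.0% of that of day 7. The mean of TIE1 was lower on day 7 than on day 0, and that of PECAM1 was higher. On day 7 against day 0, where 16.6% of all probe sets were called, 1 of these 10 rose, 1 fell and 8 were not called. The median change was −0.09. The sum of 4 red blood cell markers lay between 419 and 487 on day 7, against 488 to 631 on day 0. The part of these markers in the changes of the 6 genes was not tested.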

How the data were processed

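Values are log2 intensities per probe set as deposited, background-corrected, quantile-normalized and summarized by robust multi-array average (RMA) by the authors, per the submitters' processing notes; its version: not given in the sources used here. Of 24123 probe sets 124 controls were left out of the tests. Gene symbols came from the array annotation: 10069 probe sets had 1 symbol (6765 genes), 198 had several and 13732 had none. The table held no column of other samples, and no 2 of the 15 arrays were identical. The arrays' medians ran from 6.40 to 6.55, and arrays of the same day correlated at 0.963 to 0.996.

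A linear model with 1 mean per day was fitted in limma 3.58.1 (R 4.3.3) over the 15 arrays, and p-values were adjusted over all 23999 probe sets. The fit was tested on simulated data. No genome build or sequence was used, so no positions or sequences are given.

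The members and the 20 gene lists were chosen with earlier results of these data known. The genes named are the members, the 3 genes most like each member, and genes drawn from the called genes of each list. From each list the rule took those with the largest changes whose values do not overlap. These were up to 4 on day 1 against day 0 and up to 3 on day 7 against day 1. Not all genes that met the rule are named. GJA1, CNN1 on day 1, ASNS on day 1, TIMP1, SERPINE2, IER5, BTG1, GADD45B, GNL3 on day 7, and list genes named as not called were added after their values were seen, as was the lower limit given for changes from means below the lower quartile.

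Same-numbered arrays deviated together from their day means (correlation above 0.1 for each number) in 7 of the 8 comparisons; in day 1 against day 0 the lowest was 0.0609. The pairing rests on these correlations and not on the labels, so the main fit has no block.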

Additional observations from a re-analysis of the deposited data

How the results depend on the processing

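The results were recomputed under 25 alternatives, 15 of which left out 1 array, and no member changed direction in a called comparison. Of the members' changes 1172 kept their side of the threshold, 17 lost a call and 11 gained one; of the other named genes' changes 1897 kept theirs and 38 lost a call, most often AREG and FOXO1. Leaving out each array in turn gave 4 to 5 members called on day 1 against day 0, 5 to 6 on day 7 against day 0, 2 to 3 on day 7 against day 1 and 0 to 2 on day 4 against day 2; in the last the count was 2 with a replicate block and 4 without replicate 1 of every day (FOS, ATF3, EGR1 and SGK1). EGR1 on day 4 against day 0 was called under cyclic loess (−1.28) and under a repeated quantile normalization (−1.26). With no minimum change the probe sets called were 6020, 6248, 7360 and 7514 on days 1, 2, 4 and 7 against day 0, 1461 on day 2 against day 1, 1002 on day 4 against day 2, 4524 on day 7 against day 1 and 8605 over the time course. On day 2 against day 1 leaving out 1 array gave 451 to 986 probe sets, against 729, and leaving out replicate 1 gave 1321. On day 4 against day 2 the 6 arrays alone gave 371, against 608. On day 7 against day 4, where 14 were called, the count was 4 without the dimmest 40% of probe sets, 0 with the 6 arrays alone, 41 with the replicate block, 55 without replicate 1 and 4 to 15 without 1 array. Pairing arrays by replicate number changed no other member call, and no other count of members or probe sets by over 1.5 times. It took the count of NF-kappaB targets called on day 7 against day 1 from 0 to 1. For 15 of 15 arrays the best correlation was with their own number. The cause of these differences was not tested.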
